A study of Canis lupus familiaris with 8 samples.

Results

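The 6 genes described here, LOC119876004, IFFO2, GPRC5A, IFRD1, ALAS1 and PLIN2, are 6 of the 37952 genes in a table of read counts from stretched and unstretched MDCK GII cells, an epithelial line from dog kidney. They were chosen by their measured rise in stretch wells over control wells, outside the gene families usually followed as early responses, and that choice set no numerical limit. Their rise is therefore given as a description, without a test. All 6 were among the 14571 genes that passed the filter on low counts.

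Both groups were monolayers of the same line on an elastic silicone membrane coated with rat collagen type 1, seeded in low-calcium medium, moved to regular medium and kept overnight. The stretch group, 4 wells, was pulled equally along both axes of the membrane to a static strain of 18% that was held for 2 hours until lysis. The control group, also 4 wells, had the label Control. The wells are described as technical quadruplicates of a single line divided at random over separate devices, so the errors below measure the spread between wells and not between lines or animals. The series title places the work in a study of how E-cadherin under force activates EGFR and ERK.

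The genes come from separate corners of cell biology. ALAS1 encodes the enzyme of the first and rate-limiting step of haem synthesis in cells other than red cell precursors, and it sits in mitochondria. PLIN2 encodes perilipin 2, which coats lipid droplets and protects the stored fat from lipases, and its transcription is known to follow fatty acid supply through PPAR receptors. GPRC5A encodes an orphan membrane receptor known as a retinoic acid-induced gene, IFRD1 a transcriptional coregulator that binds histone deacetylase complexes, and IFFO2 a little studied member of the intermediate filament superfamily. LOC119876004 codes for a protein that RefSeq lists under this locus name alone.

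Per well, 27047358 to 32478887 reads were counted. The label of an epithelial line fitted the markers. CDH1, EPCAM, KRT8 and KRT18 averaged between 527 and 2457 normalised counts (CPM, counts scaled by TMM factors to a common total) in control wells. The kidney cadherin CDH16 was low, at 1.27 ± 0.421 CPM (SD, n = 4) and 20 to 59 counts per well. PAX8 and PAX2, also on the epithelial list, were at 72.3 ± 4.29 and 29.0 ± 3.41 CPM in control wells. The 8 epithelial markers summed to between 4797 and 5379 CPM in control wells and between 5078 and 5181 in stretch wells. Of 6 fibroblast markers, COL1A2, COL3A1, DCN and LUM had no counts in any well, and of 5 leukocyte markers PTPRC and CD3E had none. No endothelial marker of 5 was at 0 in every well, but PECAM1, CDH5 and TEK had at most 3 counts in a well. The summed fibroblast, endothelial and leukocyte markers reached at most 4.11, 2.37 and 6.13 CPM in any well. Fewer cells of a type and less RNA per cell cannot be told apart in bulk samples such as these.

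The genes lie on 6 different chromosomes and none overlaps another gene of the table on either strand. LOC119876004 spans chromosome 1 from 112193446 to 112207201 on the plus strand, with 7 exons and 1410 exonic bases. IFFO2 lies on chromosome 2 (79100177 to 79148729, plus strand), and 4627 of its 6075 exonic bases belong to the last exon. GPRC5A lies on chromosome 27 (12719586 to 12741585, plus strand), 3688 of 4892 bases being in the last of its 5 exons. IFRD1 lies on chromosome 14 (52173709 to 52198482, plus strand), with 2055 of 3544 bases in the last of 12 exons. ALAS1 on chromosome 20 (37960645 to 37974293) and PLIN2 on chromosome 11 (38998438 to 39017321) are on the minus strand, and their last exons take only 310 of 2426 and 411 of 2531 bases. These coordinates are those of the count table, and they coincide with RefSeq's gene table for the dog assembly UU_Cfam_GSD_1.0.

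LOC119876004 had the largest relative rise of the 6. Control wells 1 to 4 held 12.7, 12.8, 20.3 and 16.0 CPM, and stretch wells 21.5, 26.0, 34.7 and 25.6 CPM. Every stretch well lay above every control well, although the lowest stretch well exceeded the highest control well by little. Raw counts ran from 346 to 1012. The group means were 15.4 ± 3.61 and 26.96 ± 5.54 CPM (SD, n = 4 each), a ratio of 1.75. Within pairs of wells with the same number, the log2 differences were 0.76, 1.03, 0.77 and 0.68.

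IFFO2 held 55.0, 50.3, 65.9 and 56.8 CPM in control wells 1 to 4 and 70.9, 78.1, 85.5 and 76.0 CPM in stretch wells. The groups did not overlap, and well 3 was the highest in each, as it was for LOC119876004. The means were 57.0 ± 6.53 and 77.6 ± 6.06 CPM, a ratio of 1.36. The paired log2 differences were 0.37, 0.63, 0.38 and 0.42.

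The control wells of GPRC5A held 244, 245, 320 and 263 CPM and the stretch wells 317, 341, 361 and 330 CPM. Here the groups overlapped, because control well 3 was above stretch well 1. The means were 268 ± 35.7 and 337 ± 18.7 CPM, a ratio of 1.26. The paired log2 differences of 0.37, 0.48, 0.17 and 0.33 were smallest in pair 3, whose control well was the highest.

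IFRD1 had less scatter than GPRC5A in both groups. Its control wells held 236, 228, 253 and 222 CPM and its stretch wells 295, 291, 279 and 278 CPM, without overlap. The means were 235 ± 13.5 and 286 ± 8.57 CPM, a ratio of 1.22, the smallest of the 6. The paired log2 differences were 0.32, 0.35, 0.14 and 0.32, again smallest in pair 3.

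ALAS1 had the most even control wells, at 79.1, 74.5, 74.4 and 81.7 CPM. Its stretch wells held 92.1, 105, 115 and 103 CPM, all above the controls. The means were 77.4 ± 3.56 and 104 ± 9.24 CPM, a ratio of 1.34. The paired log2 differences, 0.22, 0.50, 0.62 and 0.34, varied more between pairs than those of the other members (SD 0.18), and pair 3 gave the largest.

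PLIN2 held 173, 170, 135 and 133 CPM in control wells and 233, 198, 189 and 165 CPM in stretch wells. Control wells 1 and 2 lay above stretch well 4, so the groups overlapped, although each stretch well exceeded the control well of its own number. The means were 153 ± 21.8 and 196 ± 28.4 CPM, a ratio of 1.28. The paired log2 differences were 0.43, 0.22, 0.48 and 0.31.

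**Figure D1:**
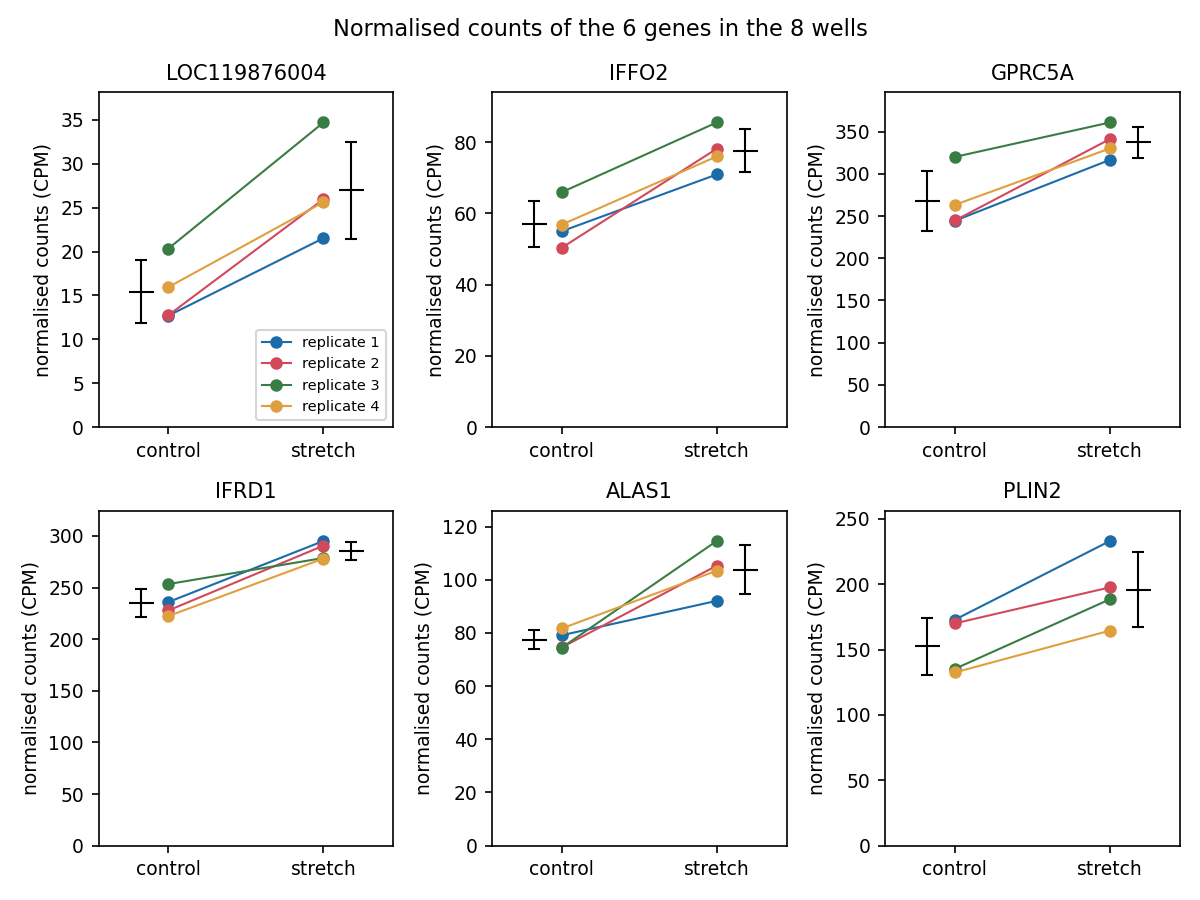
Normalised counts (CPM) of each gene in control and stretch wells; a line joins wells with the same replicate number, and black bars show the mean ± SD of 4 wells. All lines rise, while the ranges of the groups overlap for GPRC5A and PLIN2.

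All 6 genes were higher in the stretch well of each of the 4 pairs, a pattern shown by 8.45% of tested genes. For 4 of the 6, every stretch well exceeded every control well, as for 1.30% of tested genes. The members were chosen on this contrast, so nothing is read from these counts. Over the 24 paired values, the stretch well was between 1.1 and 2.04 times its control well. The log2 changes of the 6, fitted over all genes with edgeR, had a median of 0.39, against -0.0032 over all tested genes. Ranked by rise among the 14571 tested genes, LOC119876004 stood at place 74, IFFO2 at 356, ALAS1 at 395, PLIN2 at 533, GPRC5A at 609 and IFRD1 at 792.

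The pairs did not order the genes alike. Pair 2 had the largest difference for LOC119876004, IFFO2, GPRC5A and IFRD1, whereas for PLIN2 it had the smallest. Pair 3 had the largest difference for ALAS1 and PLIN2 and the smallest for GPRC5A and IFRD1. In each pair LOC119876004 had the largest difference of the 6. The median log2 difference of the 6 genes was 0.37, 0.49, 0.43 and 0.33 in pairs 1 to 4, while the median of all tested genes stayed between -0.0074 and 0.0043.

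**Figure D2:**
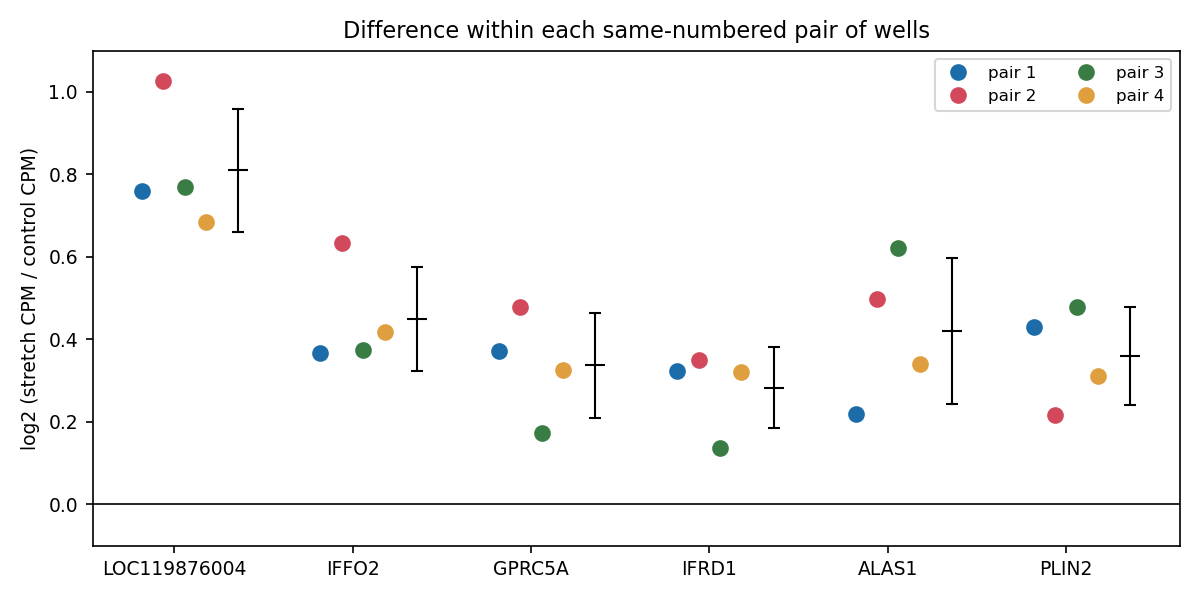
Log2 ratio of stretch to control CPM in pairs 1 to 4 for each gene, with the mean ± SD of the 4 pairs in black. All 24 values are above 0, from 0.14 for IFRD1 in pair 3 to 1.03 for LOC119876004 in pair 2.

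Levels of different genes were compared per kilobase of exon. IFRD1 was the highest in control wells, at 66.3 ± 3.81 CPM per kilobase (SD, n = 4), followed by PLIN2 at 60.4 ± 8.60 and GPRC5A at 54.8 ± 7.30. The wells of these 3 genes overlapped. ALAS1 stood apart at 31.9 ± 1.47 CPM per kilobase. LOC119876004 at 10.9 ± 2.56 and IFFO2 at 9.38 ± 1.08 CPM per kilobase overlapped at the lower end. In stretch wells the order was the same, and LOC119876004, at 19.1 ± 3.93 CPM per kilobase, no longer overlapped with IFFO2 at 12.8 ± 0.997. Among all tested genes, these levels over all wells fell between the 55.8th percentile for IFFO2 and the 91.4th for IFRD1.

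**Figure D3:**
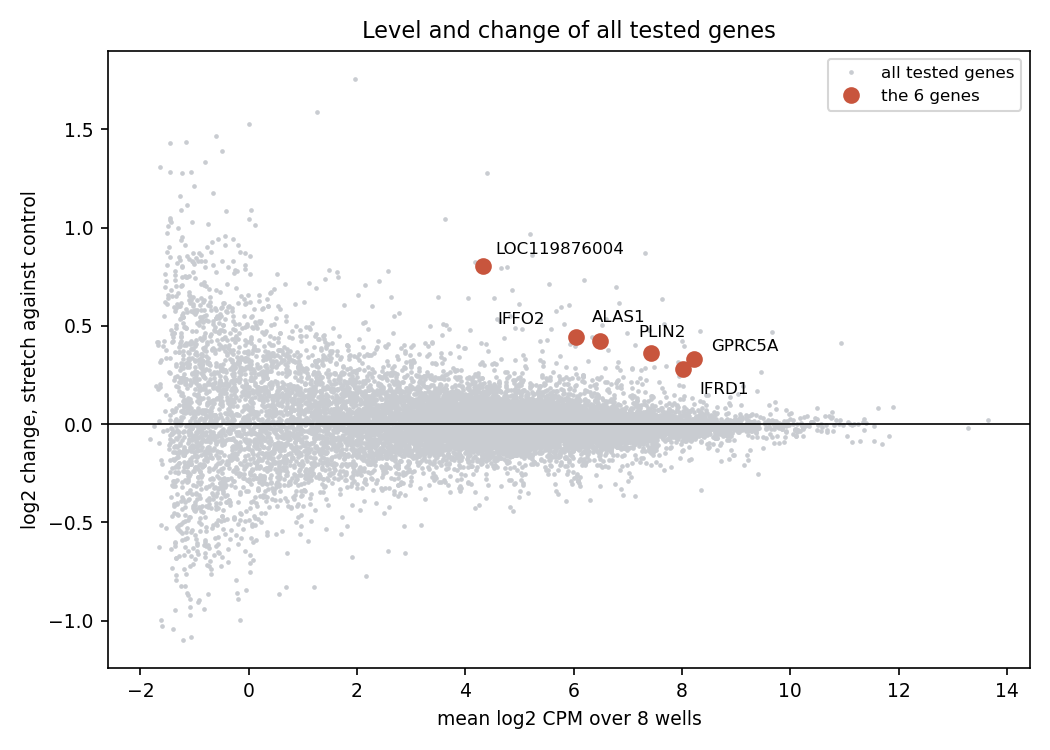
Log2 change (stretch against control, edgeR) against mean log2 CPM for all tested genes in grey and the 6 genes in red. Changes scatter more widely at low levels, and LOC119876004 has the fewest counts and the largest change of the 6.

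The unstretched wells alone gave the spread of the genes without strain, although the same control values entered the choice of the genes. The coefficient of variation over the 4 control wells was 23.4% for LOC119876004, 14.2% for PLIN2, 13.3% for GPRC5A, 11.5% for IFFO2, 5.75% for IFRD1 and 4.6% for ALAS1, against a median of 9.01% over all tested genes. Among genes within a factor of 2 of its own control level, LOC119876004 varied more than 96.2%, PLIN2 more than 94.1% and GPRC5A more than 93.3%. ALAS1 varied more than only 34.0% of its peers.

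The wells of replicates 1 and 2 differed from those of replicates 3 and 4 in a gene-specific way. PLIN2 averaged 172 CPM in control wells 1 and 2 and 134 in wells 3 and 4, and 215 against 177 CPM in stretch wells. LOC119876004 went the other way, with 12.7 against 18.1 CPM in control wells and 23.7 against 30.2 in stretch wells. GPRC5A also had the lower control mean in wells 1 and 2, 245 against 292 CPM. IFRD1 and ALAS1 were nearly level in control wells, at 232 against 238 and 76.8 against 78.1 CPM. Since the members were chosen for their rise in these same wells, their differences on each side of this division are only a description. The mean paired log2 differences within replicates 1 and 2 and within replicates 3 and 4 were 0.89 and 0.73 for LOC119876004, 0.50 and 0.40 for IFFO2, and 0.43 and 0.25 for GPRC5A. They were 0.34 and 0.23 for IFRD1, 0.36 and 0.48 for ALAS1, and 0.32 and 0.40 for PLIN2. The labels name no batch for these wells, and its part in the results was not tested.

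The genes next to each member on the chromosome were then examined, since the choice of the members did not use them. Of the 12 nearest tested neighbours, 1 on each side of each gene, 7 were higher and 5 lower after stretch, with a median log2 change of 0.0033. None passed in edgeR's quasi-likelihood test (0 of 12 without and 0 of 12 with the replicate number as a block), against 0% and 0.700% of all tested genes in these fits, and 0 had an unadjusted p under 0.05 in either fit. DESeq2 and limma-voom also called 0.

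For LOC119876004, the neighbour CADM4, a cell adhesion gene 7.20 kb away, averaged 5.01 ± 0.820 CPM in control and 5.32 CPM in stretch wells (log2 change 0.08). On its other side SMG9, a gene of nonsense-mediated decay, changed by -0.05. ALDH4A1, a mitochondrial enzyme of proline breakdown only 2.86 kb from IFFO2, was at 254 ± 13.6 and 255 CPM. GPRC5A is followed by its relative GPRC5D, which was too low to be tested, and then by the haem-binding protein gene HEBP1, at 96.0 ± 5.15 and 96.2 CPM. HAUS6, a mitotic spindle gene 4.63 kb from PLIN2, was at 64.2 ± 3.79 and 65.1 CPM. POC1A, a centriole gene beside ALAS1, fitted at -0.08 and TLR9_1 at 0.13 with an SE of 0.31, on no more than 52 counts a well. The neighbours of IFRD1, ZNF277 and TMEM168, fitted at 0.01 and -0.08. UBR4, DDX47 and DENND4C lay between -0.06 and 0.07.

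**Figure D4:**
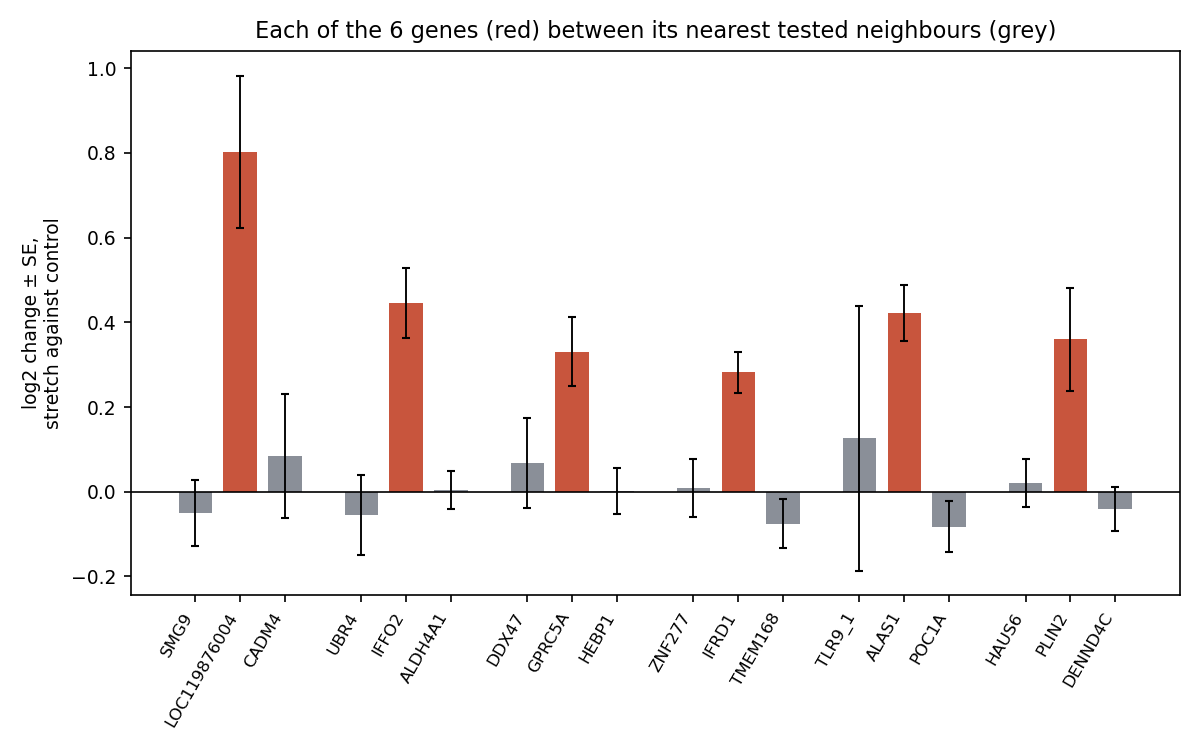
Fitted log2 change ± SE for each of the 6 genes (red) and its nearest tested neighbour on each side (grey), in chromosomal order, from the edgeR fit without the block. Neighbours lie between -0.08 and 0.13, and the 6 genes between 0.28 and 0.80.

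Relatives and pathway partners of the genes were read from lists drawn up by function. Of 99 listed genes, 97 were in the table and 83 were tested. Without the block, 0 of the 83 passed in edgeR, with 0 calls by DESeq2 and limma-voom. With the block, 1 passed, which is 1.20% against 0.700% of all tested genes. In edgeR, 5 of the 83 without and 10 with the block had an unadjusted p under 0.05. Over all 14571 tested genes these counts were 579 and 1295, the background for each list below. The log2 changes of the 83 had a median of -0.0014, with 39 higher and 44 lower.

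The gene that passed was GPRC5B, another orphan receptor of the GPRC5 family. Its control wells held 32.6, 38.7, 63.8 and 52.6 CPM and its stretch wells 44.6, 47.2, 74.9 and 66.4 CPM. The groups overlapped widely, yet each stretch well exceeded its same-numbered control well. In edgeR's test its log2 change was 0.32 ± 0.05 (SE) in the blocked fit (adjusted p = 0.00339) and 0.31 ± 0.26 in the unblocked fit (adjusted p = 0.999). When pair 1 was left out of the blocked edgeR fit, GPRC5B no longer passed (adjusted p = 0.0767). GPRC5B overlaps 1 gene on the opposite strand, and the strand setting of the counting is not given in the sources used here. The same limit holds for other genes named in this report. Among them are DHRS3 (3 genes), IFRD2, HDAC3, NDEL1 and TP53INP2 (2 each), and PLIN3 and PDK4 (1 each). HAUS6 overlaps 1 gene on its own strand. Per kilobase, GPRC5A was 5.93 ± 1.19 times as abundant as GPRC5B in control wells and 6.00 ± 1.31 times in stretch wells. GPRC5C, a further family member, was at 21.9 ± 0.921 and 24.6 ± 0.823 CPM, higher in 4 of 4 pairs (log2 change 0.17, adjusted p = 0.365 in the blocked edgeR fit). GPRC5D had 3 to 9 counts per well.

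The other close relatives gave smaller or less certain values. PLIN3, which coats nascent lipid droplets, was at 17.9 ± 3.04 CPM in control and 18.4 ± 3.66 in stretch wells (edgeR adjusted p = 0.952 with the block). Its control wells, 20.7, 20.3, 15.03 and 15.5 CPM, had the same division by replicate number as those of PLIN2. The ratio of PLIN2 to PLIN3 per kilobase was accordingly steady among control wells at 6.87 ± 0.240, and it was 8.61 ± 0.553 in stretch wells. PLIN1, the perilipin of fat cells, had 5 to 17 counts per well and PLIN4 at most 10, while PLIN5 had 1 count over all wells.

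IFRD2, the paralogue of IFRD1, was at 112 ± 3.36 CPM in control and 110 ± 6.89 in stretch wells, a log2 change of -0.03. IFRD1 stood at 1.25 ± 0.0841 times IFRD2 per kilobase in control wells and 1.55 ± 0.0548 times in stretch wells. IFFO1 was at 2.57 ± 0.371 and 2.68 ± 0.690 CPM. ALAS2, the red cell counterpart of ALAS1, had no counts in any well, which allows up to 0.0931 to 0.111 CPM per well (a limit of 3 counts that covers counting error only).

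The haem list held ALAS1's downstream enzymes, mitochondrial carriers, regulators and the enzymes of haem breakdown. Of its 20 tested genes, 9 were higher and 11 lower, with a median log2 change of -0.0047, and 0 passed in either edgeR fit (1 at an unadjusted p under 0.05 with the block). The enzymes from ALAD to FECH lay between -0.05 and 0.12. BACH1, a haem-sensing repressor, was at 77.1 ± 5.55 and 85.0 ± 7.27 CPM (edgeR adjusted p = 0.265 with the block). HMOX1, which degrades haem, held 39.6, 33.5, 16.9 and 20.4 CPM in control wells and 37.5, 25.5, 17.8 and 18.8 CPM in stretch wells. Its wells thus divided by replicate number, in the direction seen for PLIN2, and the groups overlapped (log2 change -0.15 ± 0.35, edgeR adjusted p = 0.999 without and 0.656 with the block).

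Genes of lipid droplet formation and breakdown were as evenly divided, with 9 of 19 tested higher, 10 lower and a median log2 change of -0.0014. None passed in either edgeR fit. An unadjusted p under 0.05 was found for 2 and 3 without and with the block, against 579 and 1295 of 14571 tested genes. G0S2 and HILPDA both encode inhibitors of the triglyceride lipase made by PNPLA2, and they had opposite signs. G0S2 held 34.0, 35.5, 31.6 and 33.0 CPM in control wells and 31.1, 32.9, 20.6 and 24.02 CPM in stretch wells. It was lower in 4 of 4 pairs, chiefly in pairs 3 and 4 (adjusted p = 0.102 in the blocked edgeR fit), and shares its locus with 1 gene of the opposite strand. HILPDA was at 17.2 ± 2.53 and 20.6 ± 2.53 CPM, higher in 4 of 4 pairs (adjusted p = 0.192 in the blocked edgeR fit).

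Among PPAR receptors and genes of fatty acid use, 3 of 11 tested were higher and 8 lower (median -0.04), and 0 passed. In edgeR 1 and 2 had an unadjusted p under 0.05 without and with the block, against 579 and 1295 of 14571 tested genes. ANGPTL4, a lipase inhibitor known as a PPAR target, was at 15.5 ± 0.583 and 18.3 ± 2.71 CPM, and stretch well 4 lay below the controls. PDK4, which restrains glucose oxidation, was at 4.95 ± 1.13 and 3.66 ± 1.5 CPM, lower in 4 of 4 pairs (adjusted p = 0.248 in the blocked edgeR fit).

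In the retinoid list 9 of 10 tested genes were higher and 1 lower (median 0.07 over the 10), and 0 passed (0 at an unadjusted p under 0.05 in either edgeR fit). Of the 9 higher, CYP26A1, CYP26B1 and TGM2 had at most 31 counts in a well. RARA changed sign between the fits (log2 change 0.0004 without and -0.0011 with the block). DHRS3, a retinal reductase induced by retinoic acid, was at 7.20 ± 2.05 and 9.51 ± 1.49 CPM, higher in 3 of 4 pairs. The abundant ALDH1A1 was at 1576 ± 170 and 1621 ± 59.6 CPM. Of the 11 histone deacetylase and corepressor genes, 3 were higher and 8 lower (median -0.05) and 0 passed. In edgeR 1 and 2 had an unadjusted p under 0.05 without and with the block, against 579 and 1295 of 14571 tested genes. SAP30, a SIN3 complex subunit, was at 36.1 ± 3.10 and 31.98 ± 1.82 CPM, and HDAC3 at 94.8 ± 3.25 and 88.3 ± 2.12 CPM, each lower in 4 of 4 pairs. Lamins and DNA end-joining genes, listed because IFFO1 is known to bind both, had the narrowest range of the 7 lists, from -0.06 to 0.08. Of 10, 4 were higher and 6 lower (median -0.02), 0 passed, and 0 had an unadjusted p under 0.05. LMNB1 was at 402 ± 15.01 and 388 ± 24.7 CPM, and LIG4 at 12.7 ± 1.52 and 13.4 ± 0.757 CPM.

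**Figure D5:**
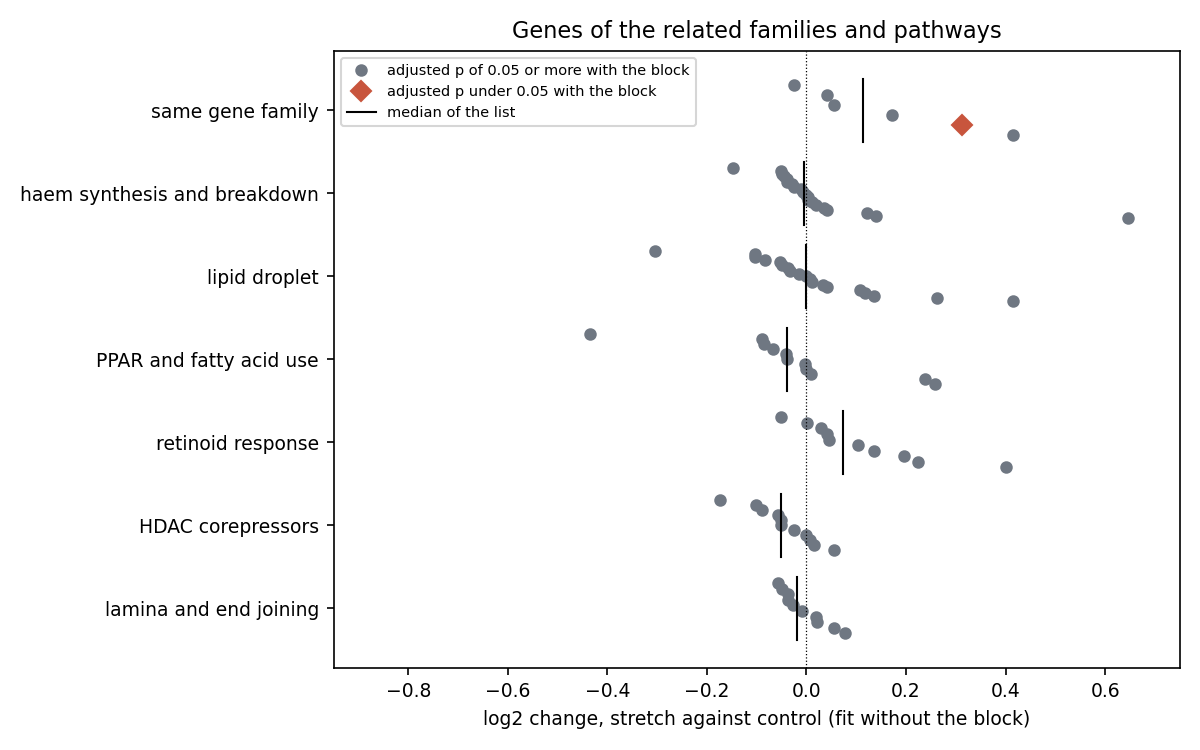
Log2 change of each tested gene of the 7 lists (edgeR fit without the block), with a black line at the median of the list. The red diamond is GPRC5B, the only one of the 83 genes past an adjusted p of 0.05 with the block, and 5 of the 7 medians lie between -0.05 and 0.

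The genes whose log2 CPM followed each member most closely over the 8 wells were sought among 11056 tested genes with at least 5 CPM. With so many genes and 8 wells, high correlations are to be found for many patterns, and they share the stretch contrast on which the members were chosen. LOC119876004 was followed by VEGFA, an angiogenic growth factor, and by PDLIM1, an actin-associated adaptor (Pearson r = 0.980 for both, Spearman rho = 0.952 and 0.929). For IFFO2 they were SDC4, a syndecan of focal adhesions (r = 0.997, rho = 1), and EIF1, a translation initiation factor (r = 0.988). For GPRC5A they were INHBA, an activin subunit (r = 0.998, rho = 0.976), and FOSL1, an AP-1 subunit (r = 0.977, rho = 1).

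VEGFA was at 21.1 ± 4.29 CPM in control and 30.4 ± 4.75 in stretch wells, and SDC4 at 102 ± 7.78 and 124 ± 6.44. INHBA was at 37.2 ± 12.3 and 61.0 ± 8.51 CPM and overlaps 1 gene on the opposite strand. The followers of IFRD1 were NDEL1, a dynein regulator (r = 0.971), and TP53INP2, an autophagy gene (r = 0.967). ALAS1 was followed by IRAK2, a kinase of Toll-like receptor signalling (r = 0.968, rho = 0.857), and PICK1, a trafficking adaptor (r = 0.960).

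PLIN2 was followed by TRIM16 (r = 0.988) and SRXN1, which repairs oxidised peroxiredoxins (r = 0.976, rho = 0.976 for both). SRXN1 was at 106 ± 12.3 CPM in control and 128 ± 12.2 in stretch wells. By Spearman rho instead, only 2 of the 12 names were the same, so the names depend on the measure.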

How the data were processed

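The authors deposited whole-number read counts per gene, summed over exons and not normalised. FastQC 0.11.8, Trim Galore 0.6.5, STAR 2.7.3a and Subread's featureCounts are named in the submitters' processing notes; strand setting, treatment of shared reads and build are not given in the sources used here. All 8 count columns matched a sample by library name. Counts were tested in R 4.3.3 with edgeR 4.0.16 (glmQLFit with robust estimation, glmQLFTest) after TMM scaling and filterByExpr (minimum count 10, minimum total 15), with p-values adjusted over all genes by Benjamini-Hochberg and a threshold of 0.05. The procedure was tested on simulated data. Alternatives used DESeq2 1.42.0 and limma 3.58.1. Log2 CPM used a prior count of 2, and figures matplotlib 3.10.9.

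The members and lists were chosen with earlier results of these data known. Named genes were the members, tested relatives, the 2 genes of smallest p with the block and any called gene per list, nearest neighbours, and the 2 closest patterns per member. Equal replicate numbers were taken as pairs, although the labels do not say that such wells share a device. Deviations from the group means correlated in each pair (0.108 to 0.328). Wells with different numbers were not compared in this way, so these values do not establish the pairing. Within groups, wells differed beyond sampling noise (chi-square per degree of freedom 5.56 to 26.8). TMEM14C and GPAT4 had no row under those symbols.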

Additional observations from a re-analysis of the deposited data

Results flagged for a closer look

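The gap between an extreme well and its nearest neighbour took an unusually large part of the range (above Dixon's critical value) in 4 of 96 groups of 4 wells. At the 95% level, chance alone gives about 4.8 of 96. IFFO1 had 3.70 CPM in stretch replicate 3 against 2.20 to 2.40 in the others. EIF1 had 391 CPM in stretch replicate 3 against 372 to 375. PICK1 had 20.8 CPM in stretch replicate 3 against 19.5 to 19.7. INHBA had 55.3 CPM in control replicate 3 against 29.8 to 33.7. None of the 6 members was among them.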

How the results depend on the processing

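Since the members were chosen for their rise in these wells, a positive sign was close to fixed beforehand. The members' log2 changes were positive under all 23 alternatives. They ranged from 0.66 to 0.96 for LOC119876004, 0.39 to 0.52 for IFFO2, 0.29 to 0.43 for GPRC5A, 0.26 to 0.33 for IFRD1, 0.35 to 0.49 for ALAS1 and 0.27 to 0.44 for PLIN2. The value of 0.964 for LOC119876004, without control replicate 3, was the only one to move by more than the SD between pairs.

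The number of genes called over the whole table depended on the model. It was 0 in edgeR without the block and with limma-voom, DESeq2 size factors, library size only or at least 10 counts in every well, 40 with DESeq2 and 11 without a filter. Leaving out single wells gave 0 to 12, with 12 without control replicate 3, 3 without stretch replicate 1, and 1 without control replicate 2 or stretch replicate 4. With the replicate block it was 102, and 43 to 186 when a pair was left out (43 without pair 1, 67 without pair 2, 74 without pair 4 and 186 without pair 3). Alternatives chosen after seeing the data gave 122 with limma-voom and the block, 145 with DESeq2 and the block, 448 with the block and no filter, and 58 with a block of 2 levels (replicates 1 and 2, replicates 3 and 4). The cause was not tested.

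Of the 83 related genes, the count was 0 without the block under each alternative and 0 without any single well. With the replicate block it was 1, and 0 to 1 when a pair was left out. It was 1 with limma-voom and the block, 2 with DESeq2 and the block, 5 with the block and no filter and 1 with the block of 2 levels. GPRC5B was called in edgeR with the block of 2 levels (adjusted p = 0.0427), and G0S2 with DESeq2 and the block (adjusted p = 0.0481). In the edgeR fit with the filter on low counts, the replicate block changed the call of no related or neighbouring gene other than GPRC5B. Without a filter, it also changed those of G0S2, HILPDA, PDK4 and DHRS3. Neighbours stayed at 0 calls under each alternative.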
